A study of Rattus norvegicus with 10 samples.

Results

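The genes described here mark the endothelium, the cell layer that lines blood vessels: Pecam1, Cdh5, Tek, Tie1, Vwf, Emcn, Plvap, Esam, Egfl7 and Icam2. They were chosen by symbol. All probe sets (groups of short oligonucleotides that together read 1 transcript) whose platform annotation gives 1 of these 10 symbols alone were taken. Of the 10 genes, 9 had such a probe set and Cdh5, which encodes the endothelial cadherin, had none and was not analysed here. The 9 genes were read by 11 of the 31099 probe sets in the table. Egfl7 and Icam2 had 2 probe sets each and the other 7 genes had 1. All 11 passed the filter on low levels, and the 9 genes stand among 12255 genes that passed it.

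The arrays held RNA from 5 mammary tumors of female Sprague-Dawley rats. Final samples (n = 5) were the tumors at sacrifice, in the 7th week after biopsy and at 19 weeks of age, after intravenous adriamycin at 1 mg/kg per week for 6 weeks. Basal samples (n = 5) were needle (trucut) biopsies of the same tumors at 12 weeks of age, before adriamycin, when a tumor had reached 2 cm3. Every tumor in both groups had been induced with 1 oral dose of 100 mg/kg of 7,12-dimethylbenz(a)anthracene (DMBA), a carcinogen. Adriamycin, or doxorubicin, is an anthracycline that inhibits topoisomerase II. Labels and design text disagree on the final samples, which are total tumors in one and trucut samples in the other. No tumor left untreated to 19 weeks is among the samples, so drug, age and possibly the kind of sample differ together between the groups. The tumors are coded 09I1, 11D2, 12I1, 29I1 and 43D1. The number of rats behind them is not given in the labels, and the p-values below therefore rest on tumor-to-tumor spread that may include tumors of 1 animal. The codes of the arrays run in sequence within a group, and an effect of such a run and one of the group cannot be told apart.

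Endothelial cells are held together and to passing leukocytes by adhesion molecules of the immunoglobulin and cadherin families, and the receptor Tek with its relative Tie1 keeps vessels stable in response to angiopoietins. Most of these genes are transcribed in nearly all endothelial cells and little elsewhere, and their RNA is commonly used to follow how much vessel a tissue holds. Pecam1 and Icam2 are also known from platelets and leukocytes, and Vwf from platelets and megakaryocytes. Transcription factors of the ETS family, which bind sequences around GGAA, act on many endothelial promoters.

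Array medians lay between 5.93 and 6.11 log2 units (robust multichip average, or RMA, values on a log2 scale), lower quartiles between 4.0 and 4.29 and upper quartiles between 8.02 and 8.18. The brightest probe set of each of the 9 genes lay above the lower quartile on all 10 arrays, with levels between 5.88 and 8.96. One array stood apart. The gap between the 3' and 5' probe sets for beta-actin, a sign of RNA quality, was 2.61 log2 units on the final array of 09I1 and between 0.72 and 0.96 elsewhere. The median correlation of that array with the rest was 0.938, where the other arrays had 0.975 to 0.984.

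None of the 9 genes differed between final and basal samples past the threshold. In limma, with the tumor as a block and p-values adjusted over all 23281 probe sets tested (Benjamini-Hochberg, threshold 0.05), the lowest adjusted p among the 9 genes was 0.977, and 0 of the 9 had an unadjusted p under 0.05. Over all probe sets the same fit called 0, or 0.0%, with a smallest adjusted p of 0.233, and 935, or 4.02%, had an unadjusted p under 0.05. The methods' paired t-test called 0 probe sets after adjustment and gave 1081 under 0.05 before it. The fitted differences ran from -0.15 to 0.35 log2 units, with standard errors from 0.15 to 0.28. Their 95% intervals all lay between -0.77 and 0.80, and each included 0. The difference was positive in 8 of 9 genes, beside 52.7% of all genes, with a median of 0.10 beside 0.01. The count depended on the tumors: with 1 left out it was 6 of 9 without 09I1, 5 of 9 without 11D2, 6 of 9 without 12I1, 9 of 9 without 29I1 and 6 of 9 without 43D1, beside 48.4% to 55.1% of all genes. In bulk tissue, fewer cells of a type and less RNA per cell cannot be told apart.

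**Figure D1:**
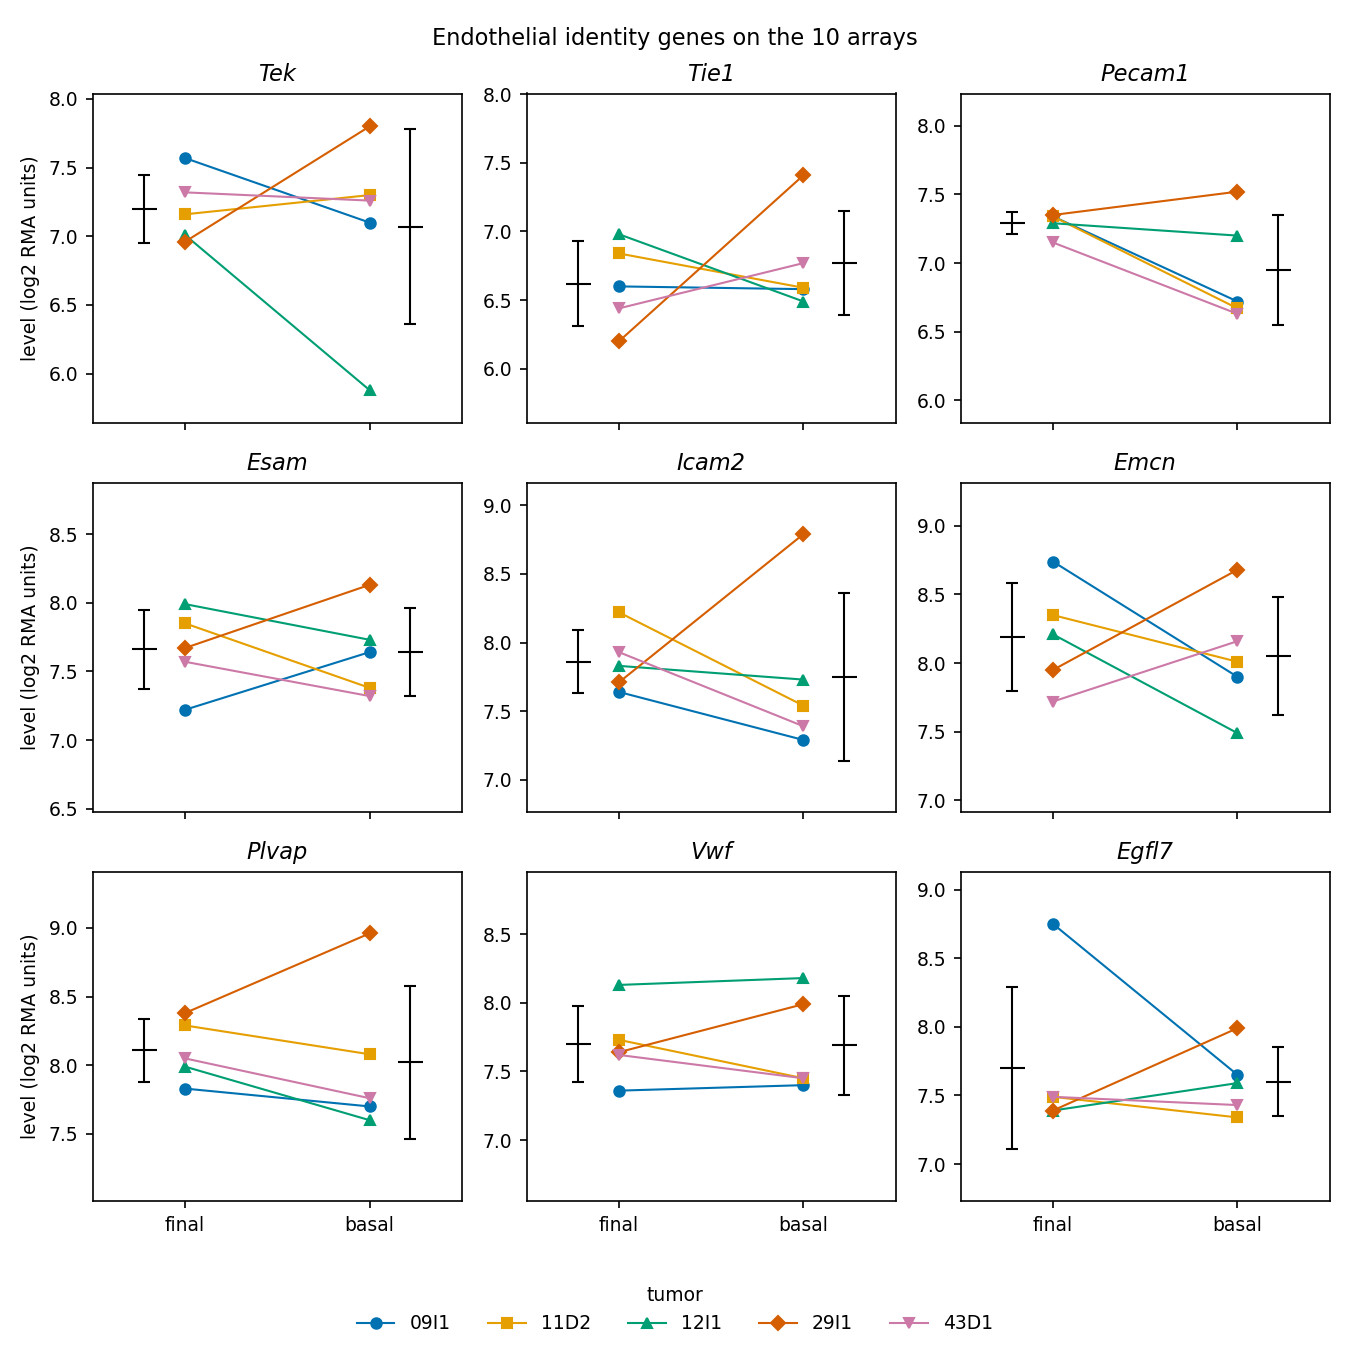
Level (log2 RMA units) of the brightest probe set of 9 endothelial genes, final samples on the left and basal on the right of each panel, with 1 coloured line per tumor; black marks give the group mean and SD (n = 5 each), and every panel spans the same number of log2 units. The basal array of 29I1 is the highest of the 5 basal arrays in every panel but that of Vwf, and the final array of 09I1 stands at 8.75 in the panel of Egfl7.

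Tek encodes the receptor for angiopoietins. Its levels were 7.57, 7.16, 7.01, 6.96 and 7.32 on the final arrays of 09I1, 11D2, 12I1, 29I1 and 43D1, against 7.10, 7.30, 5.88, 7.80 and 7.26 on the basal arrays in the same tumor order. The final arrays lay inside the span of the basal ones, whose 2 ends were 12I1 and 29I1. The mean was 7.20 ± 0.25 in final and 7.07 ± 0.71 in basal samples (SD, n = 5 each), and the paired difference was 0.14 ± 0.28 (SE; limma adjusted p = 0.977). The difference was 0.05 without 09I1, -0.11 without 12I1 and 0.38 without 29I1. Tek had the widest range of the 9 genes, 1.92 log2 units over the 10 arrays.

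Tie1 encodes an orphan receptor kinase that pairs with Tek. It had levels of 6.60, 6.84, 6.98, 6.20 and 6.44 on the final arrays, against 6.58, 6.59, 6.49, 7.41 and 6.77 on the basal arrays of the same tumors. The lowest and the highest of its 10 levels were the final and basal arrays of 29I1. The mean was 6.62 ± 0.31 in final and 6.77 ± 0.38 in basal samples (SD, n = 5 each). Its paired difference of -0.15 ± 0.26 (SE; limma adjusted p = 0.977) was the single negative one among the 9 genes, and it was 0.11 without 29I1.

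Pecam1 (CD31) encodes an adhesion molecule of endothelial junctions. It had levels of 7.34, 7.34, 7.29, 7.35 and 7.15 on the final arrays, against 6.72, 6.67, 7.20, 7.52 and 6.63 on the basal arrays. The final level was the higher one in 4 of 5 tumors, 29I1 being the exception, and the groups overlapped. The mean was 7.29 ± 0.08 in final and 6.95 ± 0.40 in basal samples (SD, n = 5 each). The paired difference, 0.35 ± 0.18 (SE), or 1.27-fold with a 95% interval of 0.94 to 1.72, was the largest of the 9 genes and did not pass the threshold (limma unadjusted p = 0.0986, adjusted p = 0.977). The unadjusted p was 0.0480 without 29I1 and 0.0333 with array weights, with adjusted p of 0.945 and 0.438. Those weights were equal for both arrays of a tumor, from 0.225 for 09I1 to 3.09 for 11D2, the tumor with the largest Pecam1 difference (0.67).

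Esam encodes another junctional adhesion molecule of endothelium. Its levels were 7.22, 7.85, 7.99, 7.67 and 7.57 on the final arrays, against 7.64, 7.38, 7.73, 8.13 and 7.32 on the basal arrays. The groups overlapped almost wholly, at 7.66 ± 0.29 in final and 7.64 ± 0.32 in basal samples (SD, n = 5 each), with a paired difference of 0.02 ± 0.19 (SE; limma adjusted p = 0.994). With 1 tumor left out it ran from -0.09 without 11D2 to 0.14 without 29I1, and it was 0.13 without 09I1.

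Icam2 encodes a ligand for leukocyte integrins that endothelium carries without activation. The brighter of its 2 probe sets read 7.64, 8.22, 7.83, 7.71 and 7.93 on the final arrays, against 7.29, 7.54, 7.73, 8.79 and 7.39 on the basal arrays. The basal array of 29I1 lay above all the others. Of the other 4 basal levels, that of 12I1 lay inside the final range and 3 lay below it. The mean was 7.86 ± 0.23 in final and 7.75 ± 0.61 in basal samples (SD, n = 5 each), a paired difference of 0.12 ± 0.27 (SE; limma adjusted p = 0.977). The difference was 0.42 without 29I1 (adjusted p = 0.945), 0.06 without 09I1 and -0.02 without 11D2. The second probe set lay near the lower quartile of the arrays, at 4.37 to 4.82 in final and 4.42 to 4.58 in basal samples, the last being that of 29I1, so the wide span of the brighter probe set is not seen in the second.

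Emcn encodes endomucin, a sialomucin of venous and capillary endothelium. It read 8.74, 8.35, 8.21, 7.95 and 7.72 on the final arrays, against 7.90, 8.01, 7.49, 8.68 and 8.16 on the basal arrays. The final array of 09I1 and the basal array of 29I1 were the highest 2. The mean was 8.19 ± 0.39 in final and 8.05 ± 0.43 in basal samples (SD, n = 5 each), a paired difference of 0.14 ± 0.27 (SE; limma adjusted p = 0.977). The difference was -0.03 without 09I1 and 0.36 without 29I1.

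Plvap encodes the protein that forms the diaphragms of endothelial fenestrae and caveolae. It read 7.83, 8.29, 7.99, 8.38 and 8.05 on the final arrays, against 7.70, 8.08, 7.60, 8.96 and 7.76 on the basal arrays. The highest level in each group was that of 29I1. The mean was 8.11 ± 0.23 in final and 8.02 ± 0.56 in basal samples (SD, n = 5 each), a paired difference of 0.09 ± 0.18 (SE; limma adjusted p = 0.977). The final level was higher in 4 of 5 tumors, by 0.13 to 0.38, and lower by 0.58 in 29I1; without 29I1 the mean difference was 0.26 (adjusted p = 0.945).

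Vwf encodes von Willebrand factor, which endothelium stores and releases to hold platelets at a wound. Its levels were 7.36, 7.73, 8.13, 7.64 and 7.62 on the final arrays, against 7.40, 7.45, 8.18, 7.99 and 7.45 on the basal arrays. The 2 arrays of tumor 12I1 were its highest ones. The means were 7.70 ± 0.28 in final and 7.69 ± 0.36 in basal samples (SD, n = 5 each). The paired difference of 0.00 ± 0.15 (SE; limma adjusted p = 1) had a 95% interval of 0.78- to 1.29-fold, the narrowest on the fold scale among the 9 genes. Transcripts of platelets, a second source of Vwf RNA, were lower in the final samples without passing the threshold, as given below for the platelet list, and their part in the Vwf values was not tested.

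Egfl7 encodes a secreted protein of the vessel wall, and its locus also holds miR-126, a microRNA known from endothelium. The brighter Egfl7 probe set read 8.75, 7.49, 7.39, 7.39 and 7.49 on the final arrays, against 7.65, 7.34, 7.59, 7.99 and 7.43 on the basal arrays. The final array of 09I1, the one with the large 3' to 5' gap, lay above all others, the next being the basal array of 29I1, and set the sign of the mean difference. The mean was 7.70 ± 0.59 in final and 7.60 ± 0.25 in basal samples (SD, n = 5 each). The paired difference was 0.10 ± 0.25 (SE; limma adjusted p = 0.977), and it was -0.15 without 09I1 (adjusted p = 0.864). The second Egfl7 probe set read 6.84 to 7.07 on the final arrays, with 6.94 on that of 09I1, against 7.69 on the basal array of 29I1 and 6.59 to 6.82 on the other 4 basal arrays. Its paired difference was 0.01 ± 0.21 (SE; limma adjusted p = 1). The arrays do not measure the mature microRNA. Its 2 main arms are shown because they come from the Egfl7 locus, from RefSeq (GRCr8), with the seed (bases 2 to 8) in capitals. On the plus strand, the 5p arm lies at chr3:29813182-29813202 and the 3p arm at chr3:29813219-29813240.
rno-miR-126a-5p: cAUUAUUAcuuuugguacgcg
rno-miR-126a-3p: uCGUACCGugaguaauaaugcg

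Within single tumors the 9 genes went different ways in 29I1 and in the rest. In 29I1 the final sample was lower for 9 of 9 genes, by a median of 0.60 log2 units, from Tie1 at -1.21 to Pecam1 at -0.17. Of all 12255 genes, 54.3% were lower there, with a median of -0.04. In 09I1, 7 of the 9 genes were higher (all genes, 58.6%), with a median of 0.35 and a range of -0.42 for Esam to 1.10 for Egfl7. In 11D2, 8 were higher (all genes, 47.1%), with a median of 0.28 and the extremes at Tek (-0.14) and Icam2 (0.68). In 12I1, 7 were higher (all genes, 56.9%), with a median of 0.26, from Egfl7 at -0.20 to Tek at 1.14. In 43D1, 7 were higher (all genes, 48.9%), with a median of 0.17, from Emcn at -0.45 to Icam2 at 0.54. No gene of the 9 had the same sign in all 5 tumors. Pecam1, Plvap and Icam2 were higher in the final sample of each of the 4 tumors other than 29I1, which was set apart after its values were seen. The share of all genes with such agreement is not given, so no excess is read from these counts. Each of these counts rests on 1 pair of samples per tumor.

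**Figure D2:**
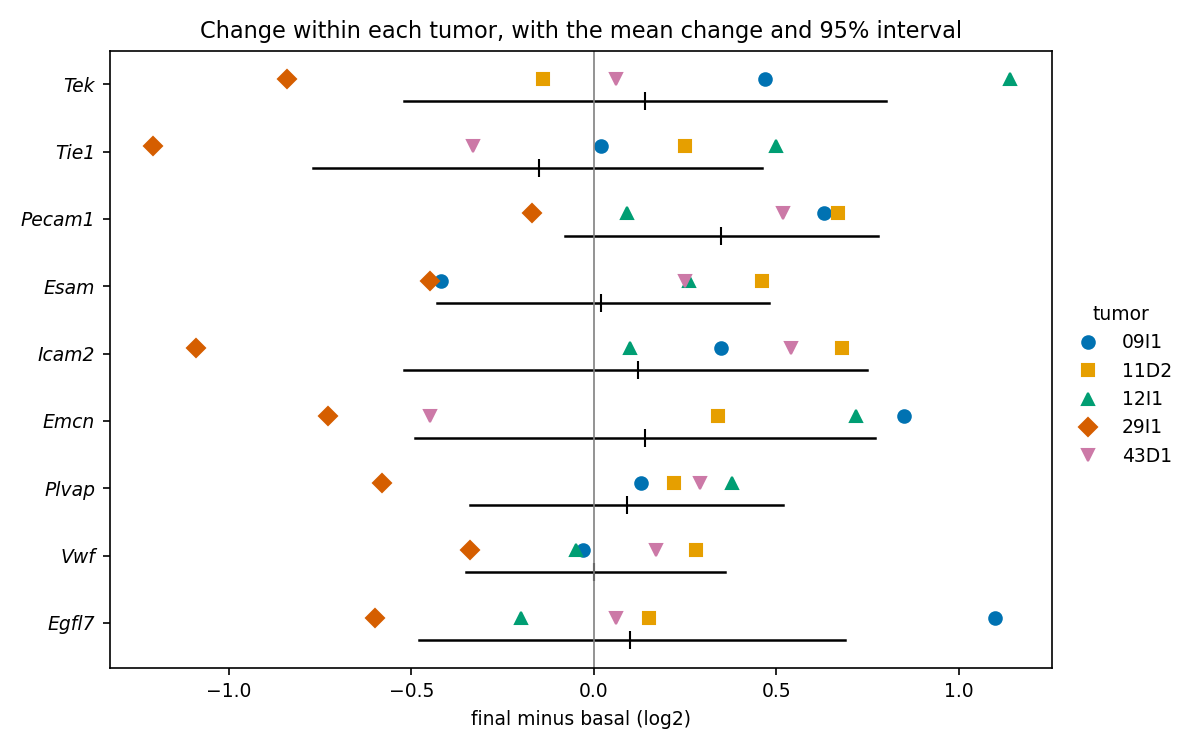
Final minus basal (log2) of 9 endothelial genes; coloured points are the 5 tumors, and the black tick and line under them are the mean difference and its 95% interval from limma. All 9 intervals include 0, and the points of 29I1 are the leftmost in every row.

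The lower final levels in 29I1 go with a high basal sample. Counts for 29I1, and values without it, were singled out after its values were seen and are descriptions. The basal array of 29I1 held the highest of the 10 levels for 6 of the 9 genes (Pecam1, Tek, Tie1, Plvap, Esam and Icam2), beside 10.5% of all genes. The difference in 29I1 was the lowest of the 5 tumors for 9 of 9, beside 24.7% of all genes. The mean over the 9 genes was 7.67, 7.70, 7.65, 7.47 and 7.48 on the final arrays of 09I1, 11D2, 12I1, 29I1 and 43D1, against 7.33, 7.37, 7.32, 8.14 and 7.35 on the basal arrays. With 29I1, the final arrays averaged 7.59 ± 0.11 and the basal ones 7.50 ± 0.36 (SD, n = 5 each), and they overlapped. Without 29I1 the final arrays averaged 7.62 ± 0.10 and the basal ones 7.34 ± 0.02 (SD, n = 4 each). These 2 sets of 4 did not overlap, but 29I1 was singled out after its values were seen, so the separation is not a test. Without 29I1 the difference was positive for 9 of 9 genes with a median of 0.28, beside 55.1% of all genes, and the adjusted p stayed at 0.945 or above for each of the 9. Without 09I1 it was positive for 6 of 9 with a median of 0.05, beside 48.4% of all genes. The SD was larger among basal than final arrays for 8 of the 9 genes, beside 39.1% of all genes, for 4 of the 9 without 29I1, beside 36.9%, and for 9 of the 9 without 09I1, beside 64.1%.

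The same tumor stood out in other cell types. Leukocyte genes had their highest level on the basal array of 29I1 for 14 of 16 genes. Their list mean was 8.60 to 9.81 on the final arrays, against 10.23 on the basal array of 29I1 and 8.12 to 9.59 on the other basal arrays. Fibroblast genes were lower in the final than the basal sample of 29I1 for 12 of 12, by a median of 1.16. The fibroblast list averaged 9.58 to 10.88 on the final arrays, against 10.88 on the basal array of 29I1 and 9.48 to 9.97 on the other basal arrays. Adipocyte genes averaged 5.45 to 7.17 on the final arrays, against 6.72 on the basal array of 29I1 and 5.17 to 5.87 on the other basal arrays. Mammary epithelial genes averaged 10.86 to 11.47 on the final arrays, against 11.18 on the basal array of 29I1 and 11.03 to 11.58 on the other basal arrays. Over all 5 tumors the median difference was 0.05 for leukocytes, 0.11 for fibroblasts, 0.54 for adipocytes and 0.04 for mammary epithelium, and none of the genes of these lists was called. With 1 tumor left out these medians ran from -0.21 (without 43D1) to 0.27 (without 29I1) for leukocytes, from -0.17 (without 11D2) to 0.38 (without 29I1) for fibroblasts, from 0.19 (without 11D2) to 0.80 (without 29I1) for adipocytes and from -0.03 (without 43D1) to 0.14 (without 09I1) for mammary epithelium. Skeletal muscle genes, a sign of tissue around the tumor, were positive for 10 of 10 with a median of 1.23, beside 52.7% of all genes. In 11D2 their median was 5.07. Without 11D2, 8 of 10 were positive with a median of 0.16, beside 53.6% of all genes. None of the tested markers of these lists lay below the lower quartile on every array, which the filter on mean level largely fixes in advance. Of the muscle genes, Myl1 read 10.93 on the final array of 11D2 and 3.34 to 4.21 on the other arrays. Ckm (9.47), Myl11 (10.17), Tnnt3 (8.20), Mb (8.02) and Tnnc2 (10.19) were also high on that array, against at most 5.07 on the other arrays. The mean levels of these genes and of Myl1 thus rest on 1 array, through which they can pass the filter. Acta1 also read 11.02 on the basal array of 43D1. The part of these cell types in the endothelial values was not tested.

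Other endothelial genes, from a list of 40 of which 38 had a probe set and 37 passed the filter, had a median on the other side of 0 from the 9. None passed the threshold in either direction, 15 differences were positive and 22 negative, and the median was -0.08, beside 0.10 for the 9 genes and 0.01 for all genes. The list mean ran from 6.51 to 6.97 on final and from 6.63 to 7.39 on basal arrays. Gja5, a connexin of arterial endothelium, had the most negative of the 3 differences with the smallest p, -0.53 ± 0.26 (SE; limma adjusted p = 0.977), and Aplnr, the apelin receptor, had -0.52 ± 0.25 (SE; limma adjusted p = 0.977). Gpihbp1, which holds lipoprotein lipase on capillaries, had 0.50 ± 0.24 (SE; limma adjusted p = 0.977), positive in 4 of 5 tumors. Kdr, the main receptor for VEGF, was named after its values were seen because it reads the same way in 29I1: it had 7.34 in the final and 8.63 in the basal sample there, its highest of 10. Over the 5 tumors Kdr had -0.38 ± 0.25 (SE; limma adjusted p = 0.977) and was lower in 4 of them. Flt1 was 1 of the 4 genes of the list that were higher in the final sample of 29I1, by 0.45. In 29I1 the list was lower in the final sample for 33 of 37 genes, by a median of 0.72, and 21 of the 37 genes had their highest level on its basal array. The median was 0.09 without 29I1, with 24 of 37 positive, and -0.18 without 11D2, with 6 of 37 positive. In 09I1 the 2 lists differed in sign, with medians of 0.35 for the 9 genes and -0.23 for the 37 others.

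**Figure D3:**
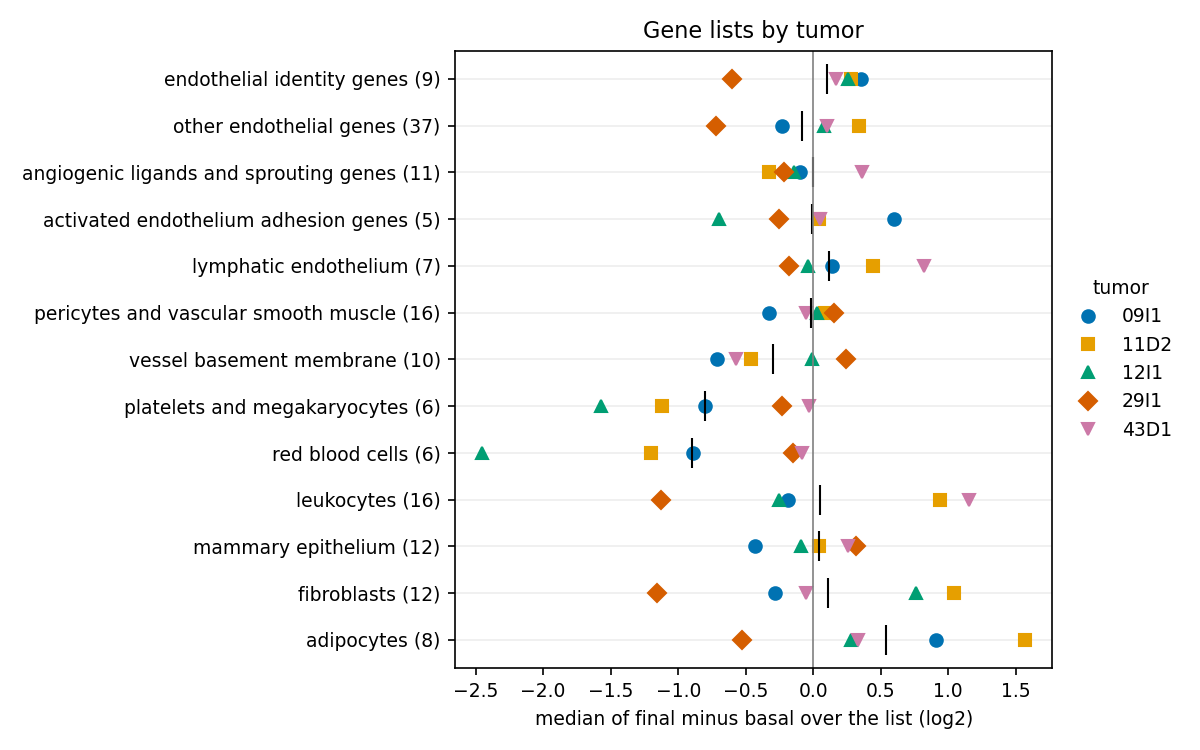
Median of final minus basal (log2) over the genes of 13 lists, with the number of genes tested in brackets; coloured points are the 5 tumors and the black tick is the median of the mean differences. In 29I1 the medians of both endothelial lists, leukocytes and fibroblasts lie between -0.60 and -1.16, and the platelet and red blood cell lists lie at or below 0 in all 5 tumors.

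Cells and matrix around vessels gave no called gene. Pericyte and vascular smooth muscle genes (16 of 16 tested) were split evenly, 8 positive and 8 negative, with a median of -0.02, and in 29I1 their median was 0.15. Mcam, an adhesion molecule of pericytes that endothelium also carries, had -0.83 ± 0.42 (SE; limma adjusted p = 0.977), from -2.47 in 09I1 to 0.53 in 43D1, and its difference was -0.42 without 09I1. Ndufa4l2 had -0.44 (-0.01 without 12I1) and Gucy1b1, a subunit of the nitric oxide receptor, -0.35 (-0.10 without 09I1). Several markers of this list, Acta2 and Myh11 among them, are also made by mammary myoepithelium. Of the 10 genes of the vessel basement membrane, 9 had a negative difference, beside 5793 of all 12255 genes. Their median was -0.30 (-0.17 without 09I1), and none passed the threshold. In 29I1, where both endothelial lists had negative medians, 7 of these 10 genes were higher in the final sample, with a median of 0.24. Which cells made their RNA was not tested. Nid1 (nidogen), a linker of laminin and collagen IV, was lower in 5 of 5 tumors, with a difference of -0.38 ± 0.14 (SE; limma adjusted p = 0.977). It was named for its small p, a choice that favours the same sign in all tumors. Nid2 had -0.49 (-0.22 without 29I1). Sparc, a collagen-binding matrix protein, had -0.88, and -0.40 without 09I1, where it was -2.80.

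Angiogenic ligands and sprouting genes (11 of 14 tested) had 6 positive and 5 negative differences and a median of 0.00, with none called. Vegfa, the main ligand of Kdr, had 8.77, 8.14, 8.65, 8.98 and 8.03 on final against 9.57, 8.71, 10.48, 9.43 and 8.13 on basal arrays. It was lower in the final sample of 5 of 5 tumors, -0.75 ± 0.25 (SE), with limma adjusted p = 0.977. Vegfa too was named for its small p, which favours the same sign in all tumors. Its differences ran from -1.82 in 12I1 to -0.10 in 43D1. In 29I1, where Vegfa had -0.45, 9 of the 9 endothelial genes were lower too. In each of the 4 other tumors 7 or 8 of the 9 were higher. A link between Vegfa and the 9 genes was not tested. Angpt2, a ligand of Tek made by activated endothelium, had 0.38 and Apln, the ligand of Aplnr, -0.47. Of the adhesion genes of activated endothelium, 5 of 7 were tested, 2 were positive and 3 negative, and the median was -0.01. Vcam1 had -0.69 ± 0.53 (SE; limma adjusted p = 0.977), with -2.31 in 29I1 and 1.48 in 43D1, Icam1 had 0.14, and Selp, which platelets also carry, 0.02.

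Lymphatic endothelial genes (7 of 8 tested) had a median of 0.12, 5 positive and 2 negative, none called. Prox1, the transcription factor of lymphatic identity, had 0.30 ± 0.22 (SE; limma adjusted p = 0.977), Flt4, a receptor for Vegfc, 0.12 and Reln -0.19. Reln (10.42 to 11.92) and Pdpn (9.83 to 10.77) lay far above Prox1 (5.49 to 6.94) and Flt4 (4.05 to 4.41) on the 10 arrays. In 29I1, 3 of the 7 genes were higher in the final sample, Reln by 0.76 and Pdpn by 0.55. Which cells made the RNA of this list was not tested. Ccl21, a chemokine of lymphatic vessels and lymph nodes, is named after its values were seen because of its range. It had 9.94, 9.12, 4.50, 4.35 and 9.30 on the final arrays, against 5.21, 6.48, 4.26, 9.28 and 7.81 on the basal arrays. Its final level was thus lower by 4.93 in 29I1 and higher by 4.73 in 09I1. Lyve1, a hyaluronan receptor of lymphatic endothelium and some macrophages, named on the same ground, had 5.78 in the final and 9.32 in the basal sample of 29I1. The 9 endothelial identity genes each spanned at most 1.92 log2 units over the same arrays. Glycam1, a ligand for L-selectin on venules of lymph nodes and also a milk protein, likewise named after its values were seen, had 12.28 in the final and 6.82 in the basal sample of 09I1, and 5.61 in the final and 10.40 in the basal sample of 43D1.

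Platelet and red blood cell genes had a negative difference in each of the genes tested, beside 5793 of all 12255 genes, and none was called. Clec1b, Tubb1, Rhd and Epb42 averaged 3.42, 4.14, 4.08 and 4.03 on the final arrays, near the lower quartiles, against 4.84, 6.19, 4.98 and 4.43 on the basal arrays. Such genes can pass the filter on mean level through their basal levels, which favours a negative difference. The other tested genes of both lists averaged 5.13 or more on the final arrays. In 43D1, 3 of 6 genes of each list were higher in the final sample, with medians of -0.03 for platelets and -0.08 for red blood cells. In 29I1, 2 of 6 platelet genes and 3 of 6 red blood cell genes were higher. For platelets and megakaryocytes, 6 of 12 listed genes were tested, 6 of 6 had a negative difference, and the median was -0.80. The list mean was 4.87 to 5.69 on final and 5.29 to 6.78 on basal arrays. Clec1b, a platelet receptor, had -1.42, Tubb1, the platelet tubulin, -2.05, and Pf4, platelet factor 4, -1.14 (limma adjusted p from 0.850 to 0.966). For red blood cells, 6 of 6 tested genes had a negative difference, with a median of -0.90, and the list mean was 5.31 to 6.95 on final and 5.77 to 8.64 on basal arrays. Vwf, shared by platelets and endothelium, had 0.00 in the same fit.

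**Figure D4:**
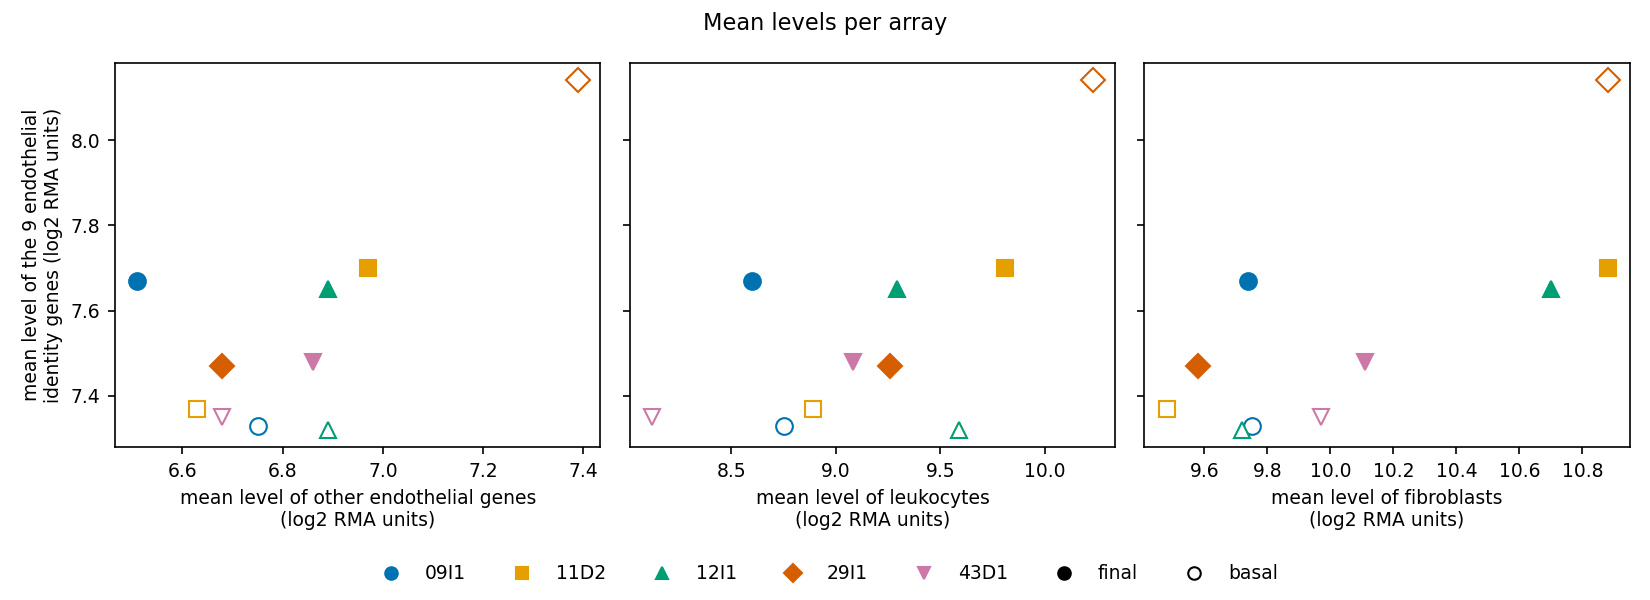
Mean level of the 9 endothelial genes on each array (vertical axis, log2 RMA units) against the mean level of 3 other gene lists (horizontal axis); filled symbols are final and open symbols basal arrays, with colour and shape giving the tumor. The open diamond, the basal array of 29I1, is the highest of the 10 arrays at 8.14, and the filled circle of 09I1 lies left of the other final arrays in the first 2 panels.

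Across the 10 arrays the 9 genes moved together only in part. The following correlations are descriptions across arrays that share tumors in pairs and a common normalization. Over the 36 pairs of genes the median Pearson r was 0.45, and 31 were positive. The highest was 0.84 between Plvap and Icam2 and the lowest -0.49 between Tek and Vwf. The median was 0.26 without 29I1, with 24 positive, and 0.59 without 09I1, with 33 positive. Among the 5 final arrays alone it was -0.01, and among the 5 basal arrays, which include that of 29I1, it was 0.70. Icam2 had the highest r with the mean of the other 8 genes (0.84), and Vwf (0.21) and Egfl7 (0.27) the lowest. Without 29I1, Tek and Emcn had r of 0.69, Esam and Vwf 0.78 and Pecam1 and Icam2 0.79, whereas Tek and Vwf had -0.77.

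**Figure D5:**
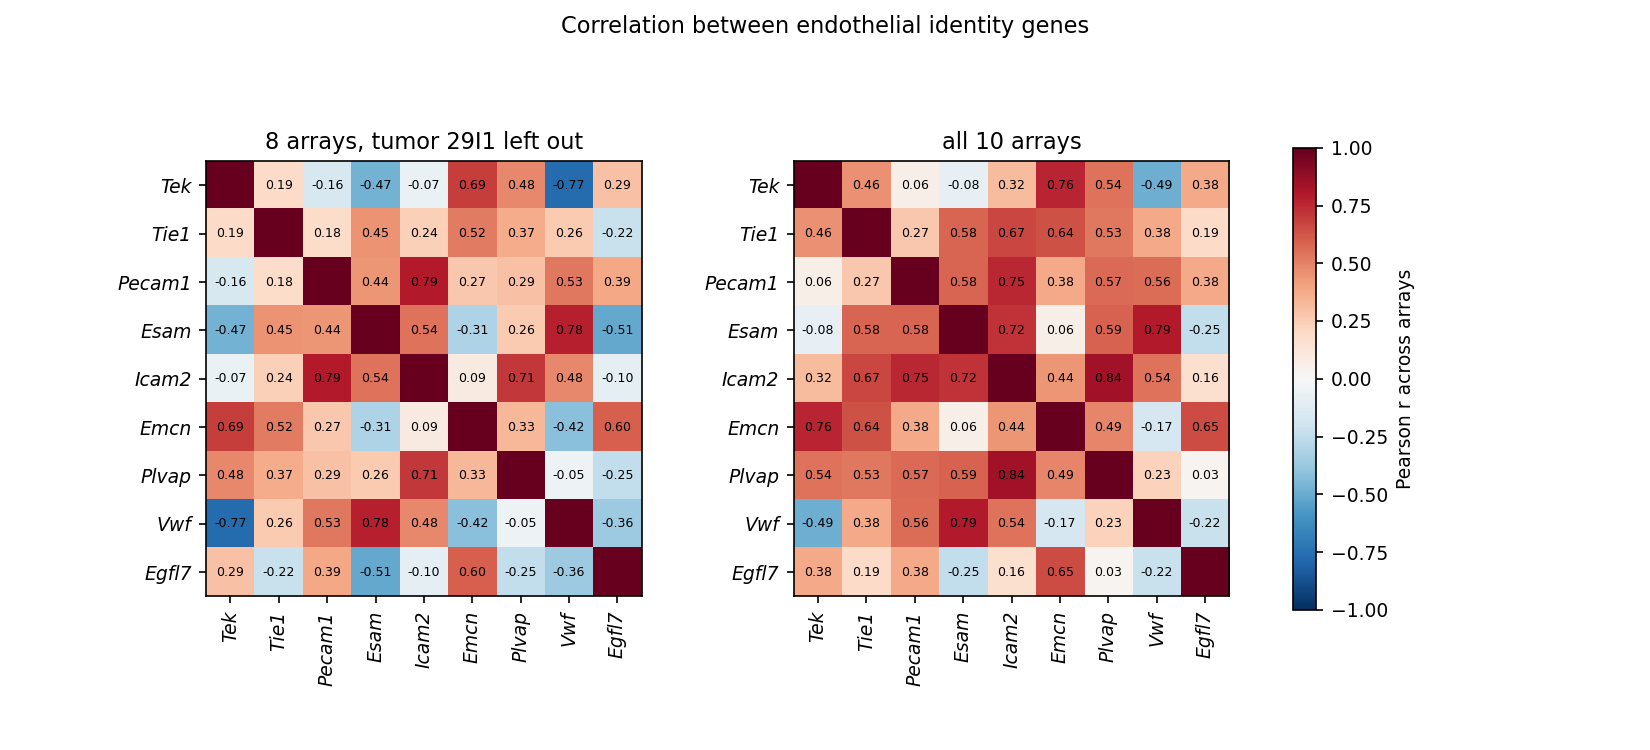
Pearson r between 9 endothelial genes, over the 8 arrays left without tumor 29I1 (left) and over all 10 arrays (right), with the value in each cell and the colour from -1 (blue) to 1 (red). More cells are red over all 10 arrays than over the 8, with a median over the 36 pairs of 0.26 on the left and 0.45 on the right.

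The mean level of the 9 genes followed that of fibroblasts with r = 0.75 over the 10 arrays (0.69 without 29I1) and that of adipocytes with 0.66 (0.71 without 29I1). With the other endothelial genes r was 0.71, with a Spearman rho of 0.39. It was 0.90 without 09I1 and 0.13 without 29I1. With leukocytes it was 0.65, and 0.34 without 29I1. It was negative with pericytes and vascular smooth muscle (-0.43), platelets (-0.41), red blood cells (-0.29), mammary epithelium (-0.28) and vessel basement membrane (-0.26). With 1 tumor left out these ran from -0.82 (without 11D2) to -0.35 for pericytes and vascular smooth muscle, from -0.67 (without 29I1) to -0.31 for platelets and from -0.47 (without 29I1) to -0.10 (without 09I1) for vessel basement membrane. For red blood cells they ran from -0.50 (without 43D1) to -0.11 (without 12I1) and for mammary epithelium from -0.48 (without 43D1) to -0.23. Of the 37 other endothelial genes, 7, or 18.9%, stood among the 200 genes most alike, beside 1.63% of all genes, and their median r was 0.44 beside 0.05. Other cell types had higher medians of r, 0.61 for leukocytes (0 of 16 among the 200), 0.55 for adipocytes (12.5%) and 0.54 for fibroblasts (16.7%). The 8 genes most alike the mean of the 9 were Tspan32 (r = 0.92), Pla2g2d, Pi16, Gsdmd and Glipr1 (0.91 each), Sting1 and Crip1 (0.90 each) and Il16 (0.89). None of these 8 is on the endothelial lists. Without 29I1 their r ran from 0.69 for Pla2g2d to 0.90 for Crip1. No gene of the 8 passed the threshold, with differences from -0.12 for Tspan32 to 0.43 for Crip1.

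Promoter sequence was at hand for 4 of the 9 genes, Emcn, Egfl7, Tie1 and Plvap, from RefSeq (GRCr8), with 2 start sites for Egfl7. The ETS core GGAA, counted on both strands in the 250 bases before the start site, occurred 6 times in Emcn, 4 in Tie1, 4 in Plvap and 3 and 2 at the start sites of Egfl7. The median over 33469 promoters was 3, with 9.27% holding at least 6 and 34.7% at least 4. The longer ETS form AGGAAG, which contains GGAA, occurred 2 times in Emcn, 2 in Plvap, 1 in Tie1 and 1 at the first Egfl7 start site, and 29.5% of promoters hold it. The ETS form CGGAAG (held by 13.9% of promoters) was in none of the 5 windows, nor was the GATA motif GATAAG (6.18%), nor the forkhead motifs TGTTTAC (3.21%) or TGTTTGC (4.16%). The SOX motif ACAAAG occurred 1 time in Tie1 (16.3% of promoters) and the TATA motif TATAAA 1 time in Plvap (12.9%). The windows are shown for the 3 genes with sequence ahead of the annotated gene, as Tie1 and Plvap were among those highest on the basal array of 29I1 and Emcn held the most cores. Capitals mark GGAA, or TTCC where the core lies on the other strand, and each is written 5′ to 3′ on the gene's strand. Tie1 is at chr5:137305048-137305231 (minus strand), Plvap at chr16:18231280-18231529 (minus strand) and Emcn at chr2:228564289-228564444 (plus strand). The stretches of Tie1 and Emcn stop short of the start site by 66 and 94 bases, so they hold 2 and 4 of the cores counted.
Tie1: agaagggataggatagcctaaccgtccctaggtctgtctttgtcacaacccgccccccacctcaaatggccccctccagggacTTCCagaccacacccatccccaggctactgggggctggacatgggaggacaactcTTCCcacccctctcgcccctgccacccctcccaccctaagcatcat
Plvap: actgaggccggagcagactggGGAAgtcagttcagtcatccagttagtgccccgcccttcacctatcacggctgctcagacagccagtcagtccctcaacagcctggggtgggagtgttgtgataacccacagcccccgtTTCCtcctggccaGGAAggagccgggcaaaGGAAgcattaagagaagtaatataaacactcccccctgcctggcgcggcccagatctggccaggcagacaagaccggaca
Emcn: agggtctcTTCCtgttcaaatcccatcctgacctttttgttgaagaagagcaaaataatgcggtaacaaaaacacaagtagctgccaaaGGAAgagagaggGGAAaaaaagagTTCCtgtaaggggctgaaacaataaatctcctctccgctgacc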

How the data were processed

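RNA of 10 tumor samples (5 final, 5 basal) was measured on Affymetrix Rat Genome 230 2.0 arrays. Per the labels, the authors normalized intensities by RMA and tested pairs with a paired Student test in GeneSpring GX 7.3, and the deposited values, 1 per probe set and array, are on the log2 scale. RMA summarises and quantile-normalizes the arrays together, so a shift shared by most genes would not show. The table holds 57 control probe sets, which were left out, as was the 25% of the rest with the lowest mean. The remaining 23281 probe sets entered a limma model (limma 3.58.1, R 4.3.3) that held the tumor code as a block and an intensity trend, followed by Benjamini-Hochberg adjustment. The fit was tested on simulated data. The brightest of a gene's tested probe sets with 1 symbol stands for it, and every probe set of the 10 genes is given. Of the probe sets that are not controls, 20826 carry 1 symbol in the platform annotation, 436 several and 9780 none. Of those with 1 symbol, 20758 matched RefSeq GRCr8 by Entrez identifier, with no symbol changed. The files name no genome build, so coordinates are those of the RefSeq sequence tables alone.

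Samples were paired by the tumor code in their labels. As a check, deviations from the group means correlated between the samples of a tumor at 0.07, 0.09, 0.01, -0.15 and 0.22, the negative value being that of 29I1. With values this low the check gave little sign of the pairing, which rests on the labels. The members and gene lists were chosen with earlier results of these data known. From each list the genes with adjusted p under 0.05 are named, or else the up to 3 with the smallest p (here for the vessel and platelet lists, the other lists being given as medians and counts), together with the 8 genes most alike the members' mean by Pearson r over the 10 arrays. Alternatives changed the block (none, or random), the filter (none, or the lowest 50% left out), the scaling (cyclic loess, or centring on array medians), the weights, the intensity trend, the probe sets averaged and the test (the methods' t-test), or left out 1 tumor. Precision is limited by the 5 pairs, and detection calls played no part. Matplotlib 3.10.9 drew the figures.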

Additional observations from a re-analysis of the deposited data

Results flagged for a closer look

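Of 37 sets of 5 values tested (levels within a group and differences between the samples of a tumor), 7 had 1 value well away from its 4 companions, and about 1.9 would have by chance. The sets share values and arrays, so the 7 are not independent, and no excess over chance is read from them. Pecam1 was 7.15 on the final array of 43D1, against 7.29 to 7.35 on the other final arrays. The final minus basal difference of Plvap was -0.58 in 29I1, with the rest of the tumors at 0.13 to 0.38. The brighter Egfl7 probe set had 8.75 on the final array of 09I1, against 7.39 to 7.49 on the other final arrays. The second Egfl7 probe set had 7.69 on the basal array of 29I1, against 6.59 to 6.82 on the other basal arrays, and its difference in 29I1 was -0.86, with the rest at 0.13 to 0.31. On the final array of 09I1 the 3' minus 5' difference was 2.61 for beta-actin and 0.93 for Gapdh, against 0.72 to 0.83 and 0.09 to 0.12 on the other final arrays.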

How the results depend on the processing

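No alternative called any of the 9 genes or any probe set, and array weights gave 2440 probe sets with an unadjusted p under 0.05 against 935. Such weights acted per tumor, with the most on 11D2. Of 135 values of single genes, 124 kept their sign, over a range of -0.32 to 0.48, with a lowest adjusted p of 0.438 (Pecam1, array weights). Changing the block, the filter, the intensity trend or the test leaves the mean difference of each gene as it is. Averaging probe sets does the same for the 7 genes with 1 probe set. Those values could not turn, so the count of 124 was in part fixed in advance. The sign turned for Egfl7 (-0.01) with array weights; for Emcn (-0.03) and Egfl7 (-0.15) without 09I1; for Vwf (-0.06), Esam (-0.09) and Icam2 (-0.02) without 11D2; for Tek (-0.11) and Esam (-0.04) without 12I1; for Tie1 (0.11) without 29I1; and for Vwf (-0.04) and Esam (-0.04) without 43D1. The cause was not tested. Without 29I1 these genes had the highest values seen with a tumor left out, 0.38 for Tek, 0.11 for Tie1, 0.09 for Vwf, 0.36 for Emcn, 0.14 for Esam, 0.28 for Egfl7 and 0.42 for Icam2, and the lowest such values were -0.11, -0.32, -0.06, -0.03, -0.09, -0.15 and -0.02 in that order. Leaving out 1 tumor put the median of the 9 genes between 0.02 and 0.28, that of other endothelial genes between -0.18 and 0.09 and that of pericytes between -0.03 and 0.09. The other alternatives gave 0.09 to 0.13, -0.11 to -0.01 and -0.02 to 0.05. With no replicate block, the pairing by tumor being dropped, mean differences and the median of 0.10 are the same by construction, and 0 probe sets were called, with 955 under an unadjusted p of 0.05. A random block estimated a correlation within tumors of 0.00172. Centring on array medians moved the median of all probe sets to 0.03. With 5 pairs, mean differences inside the 95% intervals given above are not resolved.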
